A study of Mus musculus with 12 samples.

Results

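The genes described here are 31 of 33 listed glycolysis and hypoxia response genes, taken from 18194 genes measured in ventricular tissue of mouse embryos. A gene was included where at least 1 Affymetrix probe set carried its symbol alone, which gave 68 probe sets of 45101, and the set with the highest mean over the 12 arrays stood for the gene. Gpi1 and Eno1 were matched by no such probe set and were not analysed here. The embryos, aged 14.5 days post coitum, were either Nos3-/- (KO), of the strain B6.129P2-Nos3tm1unc/J and without a working gene for endothelial nitric oxide synthase in any cell, or wild-type CD1 (WT), and their left ventricles (LV) and right ventricles (RV) were profiled separately. The groups KO LV, WT LV, KO RV and WT RV had 3 arrays each, with tissue of 15 to 30 embryos combined on an array. Genotype and strain differ together between KO and WT, so effects of the allele and of the background cannot be told apart here. Nothing in the labels goes beyond naming the samples as triplicates of pooled tissue, and p-values measure the spread between these pools.

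Glycolysis splits glucose into pyruvate in the cytosol, and the embryonic heart, which works at low oxygen, draws much of its energy from it before birth. When oxygen is short, the transcription factor HIF1A escapes the prolyl hydroxylases that mark it for destruction, pairs with ARNT and switches on genes of glucose uptake, glycolysis, lactate export and vessel growth. HIF1A is controlled mainly through the stability of the protein, which arrays do not measure. Several glycolytic steps have a widely expressed enzyme and another that prevails in mature muscle, and hearts change between these forms as they develop.

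The members called in both ventricles in the comparison of KO with WT embryos, given below, were Slc2a1, Hk2, Pfkfb3 and Hif1a, which rose, and Eno3 and Ndrg1, which fell. The start regions of 4 of them are shown because HIF1A binds the core letters ACGTG or GCGTG in the promoters of its targets. The sequences are RefSeq's for build GRCm38.p6, each 300 bases long from 250 before to 50 after a transcription start, with every core motif on either strand in capitals (CACGT and CACGC are the same cores on the other strand).
Slc2a1 (chr4:119108495-119108794, + strand): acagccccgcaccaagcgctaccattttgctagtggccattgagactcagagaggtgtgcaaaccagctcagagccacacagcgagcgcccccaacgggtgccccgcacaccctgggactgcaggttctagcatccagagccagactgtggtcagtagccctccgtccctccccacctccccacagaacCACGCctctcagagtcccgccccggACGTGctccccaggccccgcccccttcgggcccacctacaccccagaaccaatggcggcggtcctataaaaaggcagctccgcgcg
Hk2 (chr6:82774405-82774704, - strand): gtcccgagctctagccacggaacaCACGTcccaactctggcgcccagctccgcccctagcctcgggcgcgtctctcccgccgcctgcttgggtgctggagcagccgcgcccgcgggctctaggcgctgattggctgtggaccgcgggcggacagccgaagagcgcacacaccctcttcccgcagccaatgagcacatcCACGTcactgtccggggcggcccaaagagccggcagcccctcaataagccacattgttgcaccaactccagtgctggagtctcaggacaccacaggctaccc
Hif1a (chr12:73907617-73907916, + strand): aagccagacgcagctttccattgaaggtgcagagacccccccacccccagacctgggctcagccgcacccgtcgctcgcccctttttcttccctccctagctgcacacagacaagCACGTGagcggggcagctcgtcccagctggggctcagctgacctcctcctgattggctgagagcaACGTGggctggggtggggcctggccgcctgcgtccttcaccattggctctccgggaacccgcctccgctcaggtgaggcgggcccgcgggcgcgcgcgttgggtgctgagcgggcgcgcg
Eno3 (chr11:70656926-70657225, + strand): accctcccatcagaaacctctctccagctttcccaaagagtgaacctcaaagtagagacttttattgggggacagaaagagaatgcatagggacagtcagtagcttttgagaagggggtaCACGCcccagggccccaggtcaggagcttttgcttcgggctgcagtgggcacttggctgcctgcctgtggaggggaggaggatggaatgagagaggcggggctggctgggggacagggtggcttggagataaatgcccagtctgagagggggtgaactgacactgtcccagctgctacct
Slc2a1 held 2 matches in this window, Hk2 2, Hif1a 3 and Eno3 1. In Hif1a a pair of the matches overlapped in the palindrome CACGTG, the E-box that other factors also bind. Pfkfb3 had 2 start regions in the RefSeq table, with 1 and 4 matches. Start regions were found for 28 members, 40 in all, and 32 of the 40 (80.0%) held a core motif, against 43.8% of 32851 start regions of all genes. A match of 5 letters is a description of the sequence and not a binding site, and the base composition of the regions was not compared. The members were listed as glycolysis and hypoxia response genes, some of them known HIF1A targets, so their share of motifs is no independent test.

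Before the results, several facts of the arrays bear on them. Muscle genes that define the tissue were bright on every array, with Tnnt2, cardiac troponin T, between 14.46 and 14.78 and Actc1, cardiac actin, between 14.83 and 15.01 on the log2 scale, while Myod1, a factor of skeletal muscle, stayed between 4.06 and 4.49, below the median of all values, 5.67. Myog, another factor of skeletal muscle, read 4.65 to 5.64 in KO and 5.67 to 6.62 in WT left ventricles, and 4.95 to 5.10 in KO and 5.54 to 6.01 in WT right ventricles. It thus reached the median in WT, and it fell in KO on the left (-0.98, limma adjusted p = 0.0114), with -0.74 and no call on the right (adjusted p = 0.0947). Tbx5, a factor of the left ventricle, read 8.63 to 8.89 on the right and 9.14 to 10.01 on the left ventricular arrays. Hand1, also a factor of the left ventricle, showed no such order, with 6.72 to 7.08 on the right and 6.97 to 7.25 on the left in KO, and 7.03 to 7.37 on the right and 6.76 to 7.24 on the left in WT. The single probe set of Nos3 read 7.86 to 8.02 in KO and 8.30 to 8.39 in WT left ventricles, and 7.77 to 8.23 in KO and 8.37 to 8.94 in WT right ventricles, lower in KO by 0.41 and 0.66 (differences of -0.41 and -0.66, limma adjusted p = 0.0376 and 0.00983) but not absent, and which part of the gene the set reads is not given in the sources used here. The 24 control probe sets for poly-A transcripts added before labelling averaged 8.06 to 8.47 in KO and 8.89 to 8.94 in WT left ventricles. They averaged 7.35 to 8.37 in KO right ventricles and 8.05, 8.13 and 8.96 in WT RV replicates 1, 2 and 3, so that replicate 3 stood apart from its group. The control level thus moved with genotype in the left ventricle, and results are given with and without it as a term in the model. Because KO and WT levels did not overlap there, the term and genotype are hard to separate. A call can be lost with the term for that reason alone, and the source of such losses was not tested. All values are log2 expression after RMA and all differences are on that scale.

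In the left ventricle 9 members rose and 6 fell in KO against WT embryos at a limma adjusted p under 0.05, the threshold for a call throughout. These 15 of 31 are 48.4% of the members, against 30.9% of all genes called in this comparison (18.6% higher and 12.3% lower). The median difference was 0.17 over the members and -0.01 over all genes. In the right ventricle 4 rose and 2 fell, 19.4% of the members against 8.19% of all genes (4.61% higher and 3.58% lower), with medians of 0.05 and -0.04. All 6 members called on the right were also called on the left, in the same direction. Whether the ventricles came from the same embryos is not stated, so the results of the ventricles may not be independent. KO and WT arrays did not overlap for 20 of 31 members on the left, where this held for 44.4% of all genes, and for 9 of 31 on the right, where it held for 29.4%. The shares of all genes take in dim genes, while most members were bright, and shares at like brightness were not compared. With dim genes left out, 16 members and 5511 genes of that smaller set were called on the left. That set lacks at least 34.2% of genes, the percentile by mean of Car9, a member below the cut. Its called share was therefore higher than 30.9%, and the lead of the members over all genes is not shown at like brightness. With each array centred on its median the left ventricular calls were split differently, with 7 higher and 8 lower. With the poly-A control level in the model 4 members rose and 3 fell on the left, where 14.1% of all genes were called, and 2 rose and 2 fell on the right, where 4.41% were.

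**Figure D1:**
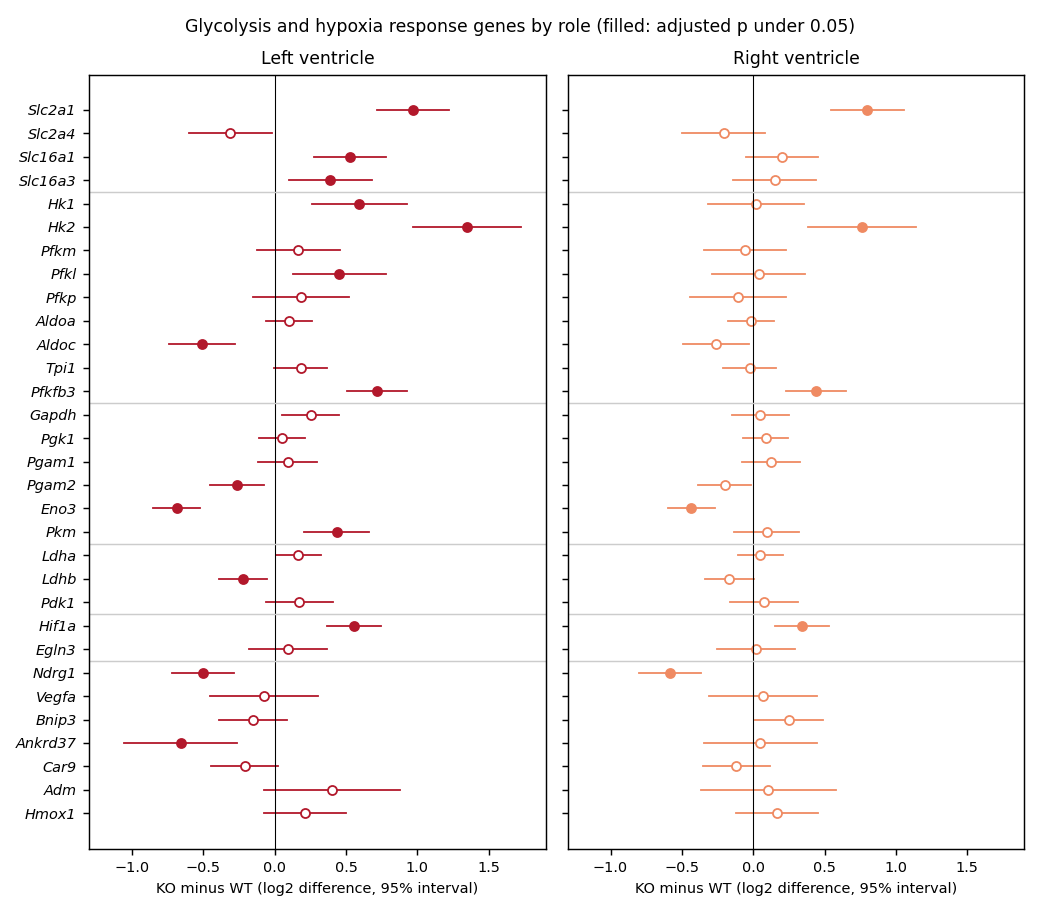
Log2 difference of KO minus WT (x axis) with its 95% interval for each of the 31 members (y axis), in the left ventricle (left panel) and the right ventricle (right panel); grey lines part the members by role and filled points passed an adjusted p under 0.05. Slc2a1, Hk2, Pfkfb3 and Hif1a lie right of 0 and Eno3 and Ndrg1 left of 0 with filled points in both panels, and the other 9 filled points are in the left ventricle alone.

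**Figure D2:**
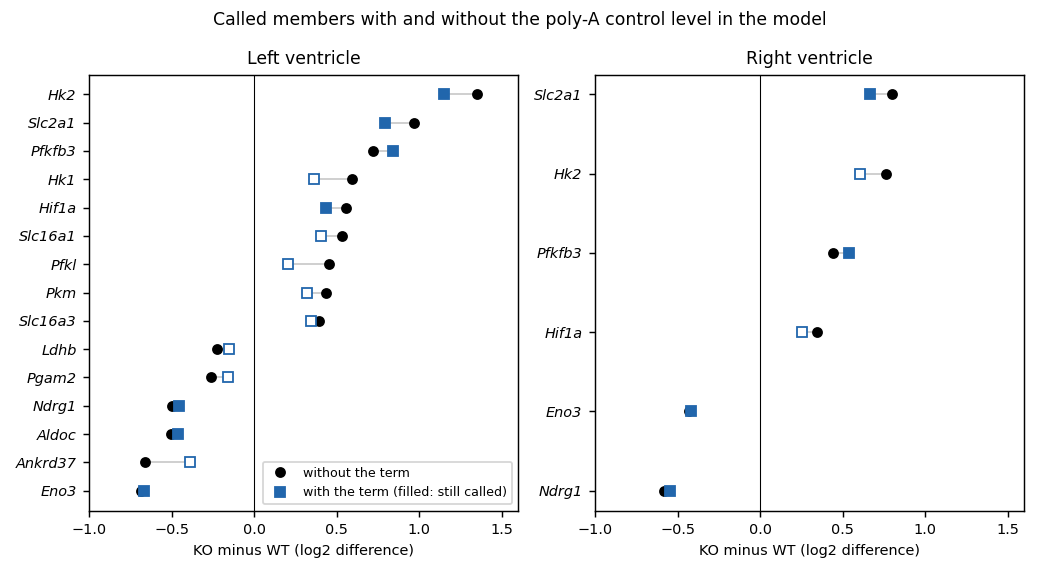
Log2 difference of KO minus WT (x axis) for the members called in the left ventricle (left panel, 15 genes) and the right ventricle (right panel, 6 genes), without the poly-A control level in the model (black circles) and with it (blue squares, filled where the call remained). Eno3, Ndrg1, Slc2a1 and Pfkfb3 have filled squares in both panels, and Hk1, Pfkl and Ankrd37 show large shifts towards 0 in the left ventricle.

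The carriers come first in the path of glucose. Slc2a1, the glucose carrier GLUT1 that prevails in the fetal heart, read 12.23, 12.09 and 12.23 in the KO left ventricles, against 11.32, 11.04 and 11.28 in those of WT embryos. In right ventricles it read 12.51, 12.59 and 12.24 in KO and 11.79, 11.70 and 11.45 in WT. Every KO array lay above every WT array in each ventricle. The difference was 0.97 on the left (12.18 ± 0.08 in KO, 11.21 ± 0.15 in WT, SD, n = 3 each, SE 0.12, limma adjusted p = 9.9e-05) and 0.80 on the right (12.45 ± 0.18 in KO, 11.65 ± 0.18 in WT, SE 0.12, limma adjusted p = 0.00104). The call held in each ventricle in all 23 other settings of the fit, and the other 2 probe sets of Slc2a1 read 0.88 and 0.77 on the left and 0.78 and 0.71 on the right.

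Slc2a4, the insulin-responsive carrier GLUT4 of mature muscle, had the opposite sign, at -0.31 on the left (95% interval -0.60 to -0.02, limma adjusted p = 0.1) and -0.21 on the right (-0.50 to 0.09, limma adjusted p = 0.355), without a call. On the left it passed in 4 of 23 other settings, among them median centring (-0.40, adjusted p = 0.0206), a further quantile normalization (-0.42, 0.0262) and the fit without WT LV replicate 1 (-0.42, 0.0468). Slc16a1, the lactate and pyruvate carrier MCT1, read 12.25, 12.34 and 12.46 in KO left ventricles, against 11.98, 11.65 and 11.83 in WT left ventricles, without overlap, and rose by 0.53 (SE 0.12, limma adjusted p = 0.00432). On the right it read 0.20 (-0.05 to 0.46) and was not called. The left call of Slc16a1 was lost with the control term (0.40, limma adjusted p = 0.0704) and with the mean of its probe sets (0.38, 0.0805). Slc16a3, the lactate exporter MCT4, rose by 0.39 on the left (limma adjusted p = 0.0434), with 6.51, 6.39 and 6.35 in KO and 5.87, 5.78 and 6.43 in WT, so that WT LV replicate 3 overlapped the KO arrays. This call held in 8 of 23 other settings, the fewest among the left ventricular calls, and was lost without any 1 array of KO LV, of KO RV, or of WT LV replicates 1 and 2 and WT RV replicates 1 and 2 (adjusted p 0.0514 to 0.177), with the difference between 0.27 and 0.42.

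Hexokinases trap glucose in the cell as its phosphate. Hk2, the inducible form of muscle, gave the largest difference among the members in the left ventricle, reading 10.43, 10.63 and 10.71 in KO and 9.53, 9.24 and 8.96 in WT. Right ventricles read 10.54, 10.85 and 10.39 in KO and 10.15, 9.87 and 9.48 in WT. The groups did not overlap in either ventricle. The difference was 1.35 on the left (SE 0.18, limma adjusted p = 0.000165) and 0.76 on the right (SE 0.18, limma adjusted p = 0.0177). The right ventricular call was lost without KO RV replicate 1 (0.79, adjusted p = 0.05), KO RV replicate 2 (0.63, 0.0744) or WT RV replicate 3 (0.58, 0.0694), and with the poly-A control term (0.61, limma adjusted p = 0.1). Hk1, the constitutive hexokinase, read 11.54, 11.76 and 11.86 in KO left ventricles, against 11.27, 10.98 and 11.13 in WT left ventricles and rose by 0.59 (SE 0.16, limma adjusted p = 0.0112). On the right it read 0.02 (-0.32 to 0.36), with 11.12 in WT RV replicate 3 against 11.80 and 11.72 in the other WT arrays. Another set of Hk1 above the median of all values read 0.67 on the left and -0.24 on the right. With the control term the left difference of Hk1 was 0.36 and no longer called (adjusted p = 0.176).

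Phosphofructokinase commits sugar to glycolysis, and Pfkfb3 makes the small sugar phosphate that activates it. Pfkfb3 read 7.28, 7.23 and 7.43 in KO left ventricles, against 6.48, 6.66 and 6.65 in WT left ventricles. It read 6.78, 6.82 and 7.02 in KO right ventricles, against 6.46, 6.33 and 6.51 in WT right ventricles. KO arrays were above WT arrays in each ventricle, by 0.72 on the left (SE 0.10, limma adjusted p = 0.000203) and 0.44 on the right (SE 0.10, limma adjusted p = 0.0136). With the control term the differences were 0.84 and 0.54, both called. A dim second set of Pfkfb3, with a mean of 4.22, read -0.15 on the right and showed no difference on the left, and the mean of the sets was called on the left (0.36) and not on the right (0.15, adjusted p = 0.33). The right call was also lost without KO RV replicate 3 (0.37, adjusted p = 0.062) or WT RV replicate 2 (0.39, 0.0552).

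Of the phosphofructokinase subunits, Pfkl, the liver form, rose on the left by 0.45 (limma adjusted p = 0.0347), with 9.71, 9.80 and 9.91 in KO and 9.32, 9.21 and 9.53 in WT, without overlap. Its call held in 13 of 23 other settings and was lost without KO LV replicate 2 or 3 or without WT LV replicate 1 or 2 (0.38 to 0.46), and also with the control term (0.20, adjusted p = 0.416) and the mean of its sets (0.13, 0.39). The other sets of Pfkl read 0.26 and -0.33. Pfkm, the muscle form, and Pfkp, the platelet form, read 0.17 (-0.12 to 0.45) and 0.19 (-0.15 to 0.52) on the left and were not called in either ventricle. On the right the subunits lay between -0.11 and 0.04.

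The aldolases split the sugar into triose phosphates. Aldoa, the main form of muscle, read 0.10 on the left and -0.01 on the right and was not called. Aldoc, the form known from brain, fell on the left, with 9.29, 9.29 and 9.26 in KO and 9.60, 9.98 and 9.78 in WT (-0.51, SE 0.11, limma adjusted p = 0.00343). On the right it read -0.26 (-0.49 to -0.03, limma adjusted p = 0.148), with KO and WT arrays meeting at 9.92. The left call held with the control term (-0.46, adjusted p = 0.0405), and in the mean with a set near background it was -0.20 and not called. Tpi1, triose phosphate isomerase, read 0.18 on the left (limma adjusted p = 0.125) and -0.02 on the right.

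Of the lower steps, Eno3 fell in both ventricles. This enolase of muscle read 12.26, 12.27 and 12.28 in KO left ventricles, against 12.91, 12.90 and 13.06 in WT left ventricles. It read 12.83, 12.89 and 12.84 in KO right ventricles, against 13.24, 13.32 and 13.30 in WT right ventricles. Arrays of a group lay close together and KO and WT did not overlap. The difference was -0.69 on the left (12.27 ± 0.01 in KO, 12.96 ± 0.09 in WT, SD, n = 3 each, SE 0.08, limma adjusted p = 5.47e-05) and -0.43 on the right (12.85 ± 0.03 in KO, 13.29 ± 0.04 in WT, SE 0.08, limma adjusted p = 0.00381). The call held in all 23 other settings in each ventricle, at -0.78 to -0.64 on the left and -0.46 to -0.42 on the right.

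Pgam2, the phosphoglycerate mutase of muscle, fell by 0.26 on the left (13.03 ± 0.12 in KO, 13.30 ± 0.06 in WT, SD, n = 3 each, limma adjusted p = 0.0339). On the right it read -0.20 (-0.39 to -0.01, limma adjusted p = 0.166), without overlap of the groups. Its left call was lost without KO LV replicate 1 or 2 or any 1 array of WT LV (-0.29 to -0.22), and with the control term (-0.16). Pgam1, the form of most tissues, read 0.09 and 0.12 and was not called. Pkm, the pyruvate kinase of muscle and embryo, read 11.21, 11.27 and 11.39 in KO left ventricles, against 10.78, 10.81 and 10.98 in WT left ventricles and rose by 0.43 (SE 0.11, limma adjusted p = 0.00805). It read 0.09 on the right (-0.14 to 0.32) and lost its left call with the control term (0.32, adjusted p = 0.111).

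Gapdh and Pgk1, the enzymes that precede the mutase, were near the top of the array's range. Gapdh read 14.22, 14.25 and 14.32 in KO left ventricles, against 13.92, 13.94 and 14.17 in WT left ventricles, without overlap, and at 0.25 just missed the threshold (limma adjusted p = 0.052). It passed in 6 of 23 other settings. They were array weights (0.28, limma adjusted p = 0.011), intensity trend and robust variances (0.25, 0.0157), dim genes left out (0.25, 0.0342) and the mean of probe sets (0.30, 0.0464). The others left out WT LV replicate 3 (0.33, 0.018) or WT RV replicate 3 (0.25, 0.0323). Gapdh read 0.05 on the right. Its sets are those the array carries as controls. Pgk1 read 0.05 and 0.09. Of the members, 17 stood in the top 10% of genes by mean, and probe sets for Gapdh, Aldoa, Tpi1, Pgk1 and Ldha can also take up transcripts of near-identical copies, which makes small differences of these genes uncertain.

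Lactate dehydrogenase and pyruvate dehydrogenase kinase decide what becomes of pyruvate. Ldhb, the heart subunit, fell by 0.22 on the left (13.26 ± 0.06 in KO, 13.48 ± 0.04 in WT, SD, n = 3 each, limma adjusted p = 0.0452) and read -0.17 on the right (limma adjusted p = 0.199), without overlap on either side. The left call was lost without any 1 array of the left ventricle (-0.25 to -0.19), without KO RV replicate 1 or 2 or WT RV replicate 1 or 2, and with the control term (-0.15, adjusted p = 0.308). The other 3 sets of Ldhb read -0.36 to -0.31 on the left and -0.26 to -0.23 on the right. Ldha, the subunit that favours lactate, was not called, at 0.17 on the left (0.01 to 0.33) and 0.05 on the right, and passed on the left in 3 of 23 other settings.

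Pdk1, a kinase that shuts pyruvate out of mitochondria and a known HIF1A target, depended on the probe set. The set used here by the rule of the highest mean read 11.25, 11.41 and 11.28 in KO left ventricles, against 11.26, 11.22 and 10.94 in WT left ventricles, a difference of 0.17 that was not called (limma adjusted p = 0.259), and 0.07 on the right. A set nearly as bright (11.19 against 11.26 in the mean of 12 arrays) read 11.60, 11.53 and 11.47 in KO left ventricles, against 10.64, 10.55 and 11.17 in WT left ventricles. The same set read 11.63, 11.64 and 11.79 in KO right ventricles, against 10.62, 10.73 and 10.93 in WT right ventricles. On that set KO arrays were above WT arrays in both ventricles, by 0.75 and 0.93, called over all 45101 probe sets (limma adjusted p = 0.0038 and 0.00297). The dimmest of the bright sets read 0.43 and 0.57, also called there (adjusted p = 0.0492 and 0.0423), so that Pdk1 differed between genotypes on 2 of its 3 bright sets. The mean of all its sets was 0.32 on the left without a call (adjusted p = 0.0705) and 0.54 on the right with one (adjusted p = 0.0181).

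**Figure D3:**
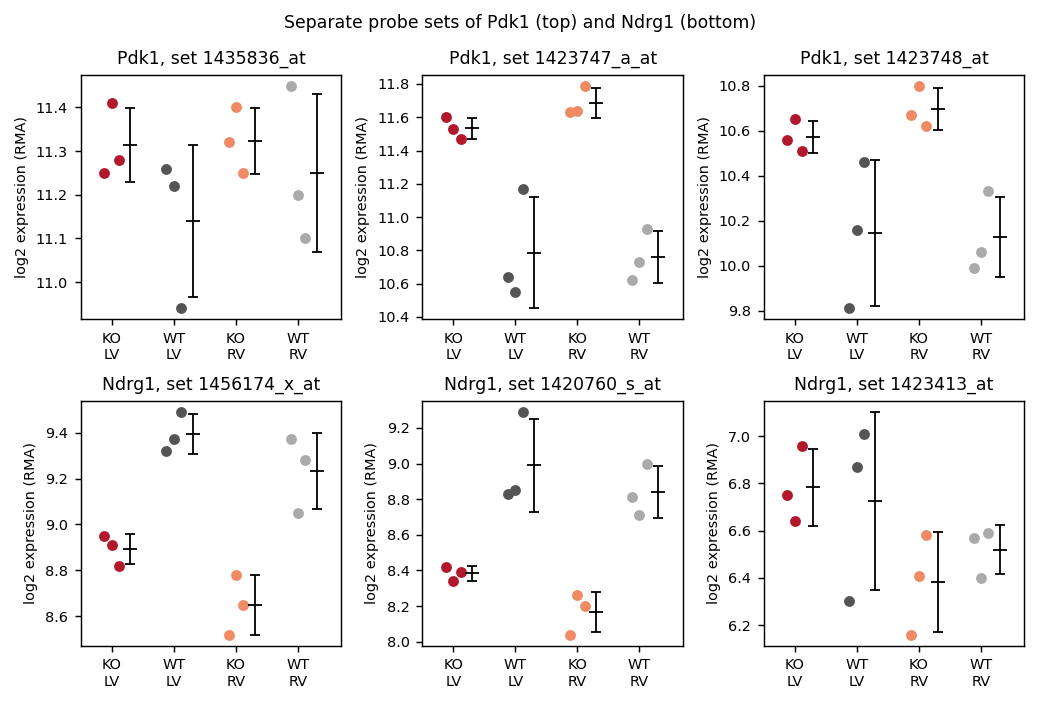
Log2 expression (y axis) on each of the 12 arrays, by group (x axis), for 3 bright probe sets of Pdk1 (top) and 3 sets of Ndrg1 (bottom); points are arrays and bars beside them the mean ± SD of 3 arrays. The KO arrays of Pdk1 lie above the WT arrays of the same ventricle in the middle and right panels and overlap them in the left one, and those of Ndrg1 lie below the WT arrays in the left and middle panels and overlap them in the right one.

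Hif1a, the oxygen-regulated subunit of the factor, read 12.66, 12.65 and 12.69 in KO left ventricles, against 12.18, 12.10 and 12.06 in WT left ventricles. It read 12.58, 12.61 and 12.41 in KO right ventricles, against 12.28, 12.24 and 12.05 in WT right ventricles. KO arrays lay above WT arrays on both sides. The transcript rose by 0.55 on the left (SE 0.09, limma adjusted p = 0.000627) and by 0.34 on the right (SE 0.09, limma adjusted p = 0.03), and another bright set read 0.68 and 0.37. On the left the call held in all 23 other settings. On the right it held in 15 of 23 and was lost without KO RV replicate 1 or 2 or WT RV replicate 2 or 3 (0.27 to 0.37, adjusted p 0.0545 to 0.109) and with the control term (0.25, adjusted p = 0.144) or the mean of its sets (0.20, adjusted p = 0.181), which takes in a pair of dim ones. Egln3, an inducible prolyl hydroxylase that limits HIF1A, read 0.09 (-0.18 to 0.36) and 0.02 (-0.25 to 0.29) and was not called. Another set of Egln3 above the median of all values read 0.31 on the left and 0.14 on the right.

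Among 7 further hypoxia and stress targets none rose and 2 fell on the left, and 1 fell on the right (limma, with the shares of all genes given above). Ndrg1, a growth arrest protein induced at low oxygen, read 8.95, 8.91 and 8.82 in KO left ventricles, against 9.32, 9.37 and 9.49 in WT left ventricles. It read 8.52, 8.78 and 8.65 in KO right ventricles, against 9.37, 9.05 and 9.28 in WT right ventricles. KO arrays were below WT arrays on both sides, by 0.50 on the left (difference -0.50, SE 0.10, limma adjusted p = 0.0026) and 0.58 on the right (difference -0.58, SE 0.10, limma adjusted p = 0.00336). The call held in all 23 other settings in each ventricle. Of the other 4 sets, 3 read -0.61 to -0.32 on the left and -0.67 to -0.43 on the right, and 1 read 0.06 and -0.14.

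Ankrd37, a small ankyrin protein and HIF1A target, read 7.90, 7.71 and 7.74 in KO left ventricles, against 8.34, 8.26 and 8.73 in WT left ventricles and fell by 0.66 (SE 0.18, limma adjusted p = 0.0148). On the right it read 0.05, with WT values of 7.99, 7.58 and 8.50, the last from the array that stood apart. Its left call was lost without KO LV replicate 2 (-0.62, adjusted p = 0.0509) or WT LV replicate 3 (-0.52, 0.0621) and with the control term (-0.39, 0.217). Vegfa, the vessel growth factor, was not called, at -0.08 (-0.45 to 0.30) and 0.07 (-0.31 to 0.45), and its arrays spread widely within a group, from 8.07 to 8.71 in KO left ventricles. Hmox1, haem oxygenase, read 0.21 (-0.08 to 0.50) and 0.17 (-0.12 to 0.45). Bnip3, a mediator of mitophagy, read -0.15 (-0.39 to 0.09) and 0.25 (0.01 to 0.49), Adm, the vasodilator adrenomedullin, 0.40 (-0.08 to 0.88) and 0.11 (-0.37 to 0.58), and Car9, a carbonic anhydrase below the median of all values, -0.21 and -0.12. Adm passed without WT LV replicate 3 (0.69, adjusted p = 0.0134).

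**Figure D4:**
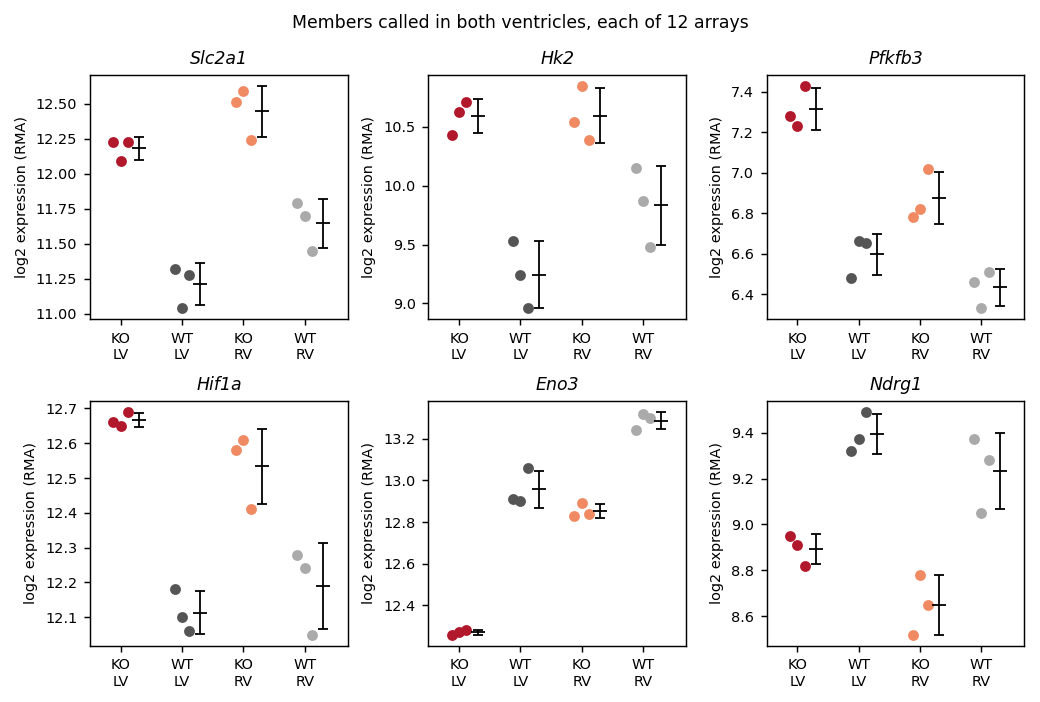
Log2 expression (y axis) on each of the 12 arrays, by group (x axis), for the 6 members called in both ventricles; points are arrays and bars beside them the mean ± SD of 3 arrays. KO arrays lie above WT arrays of the same ventricle for Slc2a1, Hk2, Pfkfb3 and Hif1a and below them for Eno3 and Ndrg1, with no overlap.

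Genes for the same step were paired and compared within each array, which cancels a shift that an array gives both alike. It does not cancel effects that depend on brightness, in which paired sets could differ, as with Slc2a4 and Slc2a1 (means 8.20 and 11.87). The size of a difference within an array also depends on the probe sets and is not a ratio of transcripts. There were 8 pairs and 16 comparisons, Eno3 having no partner without Eno1, and the two-sided exact permutation p could not go below 0.1, the value of every comparison without overlap, which became 0.16 after Benjamini-Hochberg adjustment over the 16. KO and WT arrays did not overlap in 6 of 8 pairs on the left and 4 of 8 on the right, where 44.4% and 29.4% of single genes did not overlap. Those shares are of single genes and not of pairs, and pairs of other genes were not compared. Each left pair without overlap held a member that did not overlap by itself (Slc2a1, Hk2, Aldoc, Pgam2, Ldhb or Pfkl). The balance of Slc2a4 to Slc2a1, their log2 difference, was -4.19 ± 0.11 in KO left ventricles and -2.91 ± 0.29 in WT ones (SD, n = 3 each, difference -1.28), and -4.29 ± 0.34 in KO and -3.29 ± 0.30 in WT right ventricles (exact permutation p = 0.1 each). The balance of Ldhb to Ldha was -0.36 ± 0.06 in KO and 0.03 ± 0.03 in WT left ventricles, and -0.28 ± 0.14 in KO and -0.06 ± 0.05 in WT right ventricles (SD, n = 3 each, exact permutation p = 0.1 each). That of Pgam2 to Pgam1 differed by -0.35 and -0.32 and that of Hk2 to Hk1 by 0.75 and 0.74, without overlap on either side. The forms of muscle or heart thus did not all go one way. KO values of Slc2a4, Pgam2 and Ldhb against their partners lay below all WT values and those of Hk2, also a form of muscle, lay above them, and no pair could pass the test. Aldoc against Aldoa differed by -0.61 on the left without overlap and by -0.25 on the right with overlap. Pfkl against Pfkm differed by 0.29 and 0.10, and by -0.04 on the left with the mean of the probe sets. Slc16a3 against Slc16a1 (-0.14 and -0.05) and Pfkp against Pfkm (0.02 and -0.05) overlapped in both ventricles (exact permutation p 0.7 to 1).

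**Figure D5:**
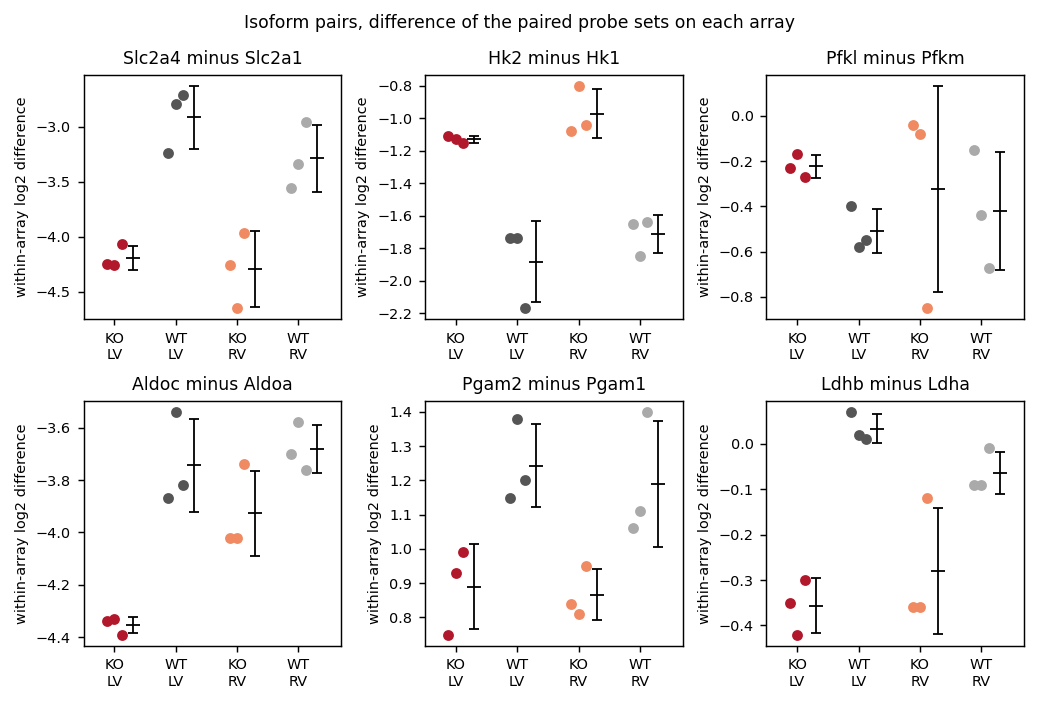
Log2 difference of the 2 genes of a pair on each of the 12 arrays (y axis), by group (x axis), for 6 pairs; points are arrays and bars beside them the mean ± SD of 3 arrays. The KO arrays lie below the WT arrays for Slc2a4 minus Slc2a1, Pgam2 minus Pgam1 and Ldhb minus Ldha and above them for Hk2 minus Hk1 in both ventricles.

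The difference between the ventricles was tested as the interaction of genotype and ventricle, and 0 of 31 members passed, against 0.022% of all genes (limma, 4 genes), with 6 members and 13.9% of all genes at an unadjusted p under 0.05. The nearest were Ankrd37 at 0.71, Hk1 at -0.57 and Bnip3 at 0.40 (right minus left, limma adjusted p = 0.314 each). Without WT RV replicate 3 these 3 passed, at 0.95 (adjusted p = 0.0252), -0.79 (0.0247) and 0.51 (0.0463), while 7.19% of all genes were then called. With array weights 3 passed as well, Ankrd37, Hk1 and Pkm, where 7.5% of all genes were called. For these genes the test of the ventricles' difference thus changed with 1 array and with the weighting of arrays.

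Between right and left ventricles of KO embryos 1 member was higher and 1 lower, where 1.14% of all genes were called (0.55% higher and 0.594% lower). Eno3 was higher on the right by 0.58 (SE 0.08, limma adjusted p = 0.00125) and Pfkfb3 lower by 0.44 (difference -0.44, SE 0.10, limma adjusted p = 0.0441), with the values given above and no overlap. Right and left arrays of KO embryos did not overlap for 12 of 31 members, where 19.7% of all genes did not. The call of Pfkfb3 held in 8 of 23 other settings and was lost without any 1 array of KO LV or without KO RV replicate 1 or 2 (-0.48 to -0.38), without WT LV replicate 2 or 3 or WT RV replicate 1 or 2 (adjusted p 0.0505 to 0.0579), and with the control term (-0.37, adjusted p = 0.0822). Aldoc was higher by 0.47 without a call (limma adjusted p = 0.0543) and passed in 10 of 23 other settings, among them the replicate number as a block (adjusted p = 0.0417). In WT embryos limma called 0 of 31 members and 0.984% of all genes, and 10 members and 17.1% of all genes had an unadjusted p under 0.05, with Eno3 at 0.33 (limma adjusted p = 0.0624) and Slc2a1 at 0.43 (limma adjusted p = 0.104). Both were among 4 members without overlap, where 15.7% of all genes had none. Without WT LV replicate 3 Eno3 (0.38, adjusted p = 0.032) and Slc16a3 (0.46, adjusted p = 0.0278) passed, as 2.06% of all genes did. Without WT RV replicate 3 8 members passed in WT, where 9.53% of all genes did. They were Slc2a1 (0.53), Hk1 (0.63), Hk2 (0.77), Pfkl (0.59), Pfkp (0.54), Eno3 (0.32) and Pkm (0.42), higher on the right, and Ankrd37 (-0.66), lower. Markers of skeletal muscle moved in the same comparisons, with 3 of 13 called higher on the right in each genotype (Ckm, Tnni2 and Acta1) and 0 lower. The list did not move as a whole, since 7 of 13 differences were below 0 in each genotype, with medians of -0.09 in KO and -0.02 in WT. Its summed level (log2 of the sum) was 13.17 to 13.35 on the right and 12.17 to 12.40 on the left in KO, and 13.36 to 13.55 on the right and 12.21 to 12.89 on the left in WT. Their part in the difference of Eno3 was not tested.

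Other genes of the same pathways were read from lists. Of 26 further glycolytic enzymes and glucose carriers 6 rose and 2 fell on the left and 1 rose and 2 fell on the right (limma), which is 30.8% and 11.5% of them, near the 30.9% and 8.19% of all genes. Eno2, the enolase of neurons, had the largest difference of these lists, with 4.76, 4.66 and 4.76 in KO left ventricles, against 6.66, 6.65 and 6.84 in WT left ventricles, and 5.15, 4.66 and 4.69 in KO right ventricles, against 7.17, 6.60 and 7.16 in WT right ventricles. Its single probe set was thus below the median of all values in KO and above it in WT (-1.99 and -2.14, limma adjusted p = 2.48e-06 and 1.23e-06). Fbp1, which runs the pathway backwards, fell by 0.58 on the left and 0.77 on the right, and Gpd2, of the glycerol phosphate shuttle, rose by 0.66 on the left. Fbp1 was dim, its mean over the arrays, 4.73, being below the median of all values. Pgm2l1 and Pgm1, which move phosphate on sugars, rose by 0.59 and 0.50 on the left, and Adpgk, a glucokinase that uses ADP, by 0.48 on the right and 0.40 on the left.

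Of 14 genes of glycogen metabolism 9 rose and 1 fell on the left and 1 rose on the right, or 71.4% and 7.14%. Gys1, glycogen synthase, rose by 0.62, Pygl, a glycogen phosphorylase, by 0.59 and Gbe1, the branching enzyme, by 0.48 on the left, and Pygl by 0.32 on the right. Ppp1r3c, which targets a phosphatase to glycogen, fell by 0.42 on the left. Of 12 genes of pyruvate entry into mitochondria 2 rose and 2 fell on the left and 1 fell on the right (33.3% and 8.33%, near the shares of all genes), among them Mpc1, the pyruvate carrier (-0.64 on the left), and Pdhx, a subunit of pyruvate dehydrogenase (-0.57 on the left and -0.38 on the right). Pdp2, a phosphatase that activates the complex, and Dlat, another of its subunits, rose by 0.58 and 0.39 on the left.

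Of 16 regulators of HIF 5 rose and 3 fell on the left and 1 rose on the right, or 50% and 6.25%. Hif1an, an asparagine hydroxylase that restrains HIF1A, rose by 0.81 on the left and 0.50 on the right. Egln1, the main prolyl hydroxylase, rose by 0.72 on the left and read 0.27, without a call, on the right, while a dimmer set of it read 0.14 and -0.20. Siah2, a ubiquitin ligase that removes prolyl hydroxylases, rose by 0.50 on the left, while a set nearly as bright read 0.06 and -0.01. Rbx1 and Cul2, parts of the ligase that removes HIF1A, fell by 0.85 and 0.26 on the left, with Siah1a at -0.33. A dimmer set of Cul2 had the opposite sign, at 0.18 on the left and 0.27 on the right. Of 39 further hypoxia-inducible genes 12 rose and 4 fell on the left and 3 rose and 1 fell on the right, or 41.0% and 10.3%. Igfbp3, which binds insulin-like growth factors, rose by 0.69 on the left and 0.98 on the right, and Bhlhe40, a repressor, by 0.88 and 0.48. Stc1, stanniocalcin, rose by 0.74 on the left and Rora, a nuclear receptor, by 0.52 on the right. Angptl4, an inhibitor of lipoprotein lipase, fell by 1.01 and 0.83, and Nos2, the inducible nitric oxide synthase, and Ndufa4l2, a mitochondrial protein, fell by 0.47 and 0.42 on the left. Nos2 was dim, its mean over the arrays, 5.46, being below the median of all values. In the list of NRF2 and haem stress genes, which accompany Hmox1, 6 of 15 rose and 2 fell on the left (53.3%), where the biliverdin reductases Blvra and Blvrb fell by 0.86 and 0.73. Nfe2l2, the factor NRF2 itself, rose by 0.46 there, and Txnrd1, thioredoxin reductase, and Bach1, a haem-binding repressor, by 0.39 each. A dimmer set of Bach1 read 0.08 on the left and -0.26 on the right. On the right limma called 0 of the 15, with 6 at an unadjusted p under 0.05, where 25.9% of all genes were. Median differences on the left were -0.07 for the further glycolytic genes, 0.05 for pyruvate entry, 0.32 for glycogen, 0.00 for HIF regulators, 0.11 for further hypoxia-inducible genes and 0.05 for stress genes, against -0.01 for all genes.

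Genes of other cell types and of handling differed between the same arrays, and in bulk tissue fewer cells of a type and less RNA per cell cannot be told apart. Summed levels below are the log2 of a list's sum, and the counts stand against 30.9% of all genes called on the left and 8.19% on the right. Markers of macrophages and leukocytes rose in 13 of 19 on the left and 4 on the right and fell in 0, with sums of 12.51 to 12.66 in KO and 11.80 to 11.88 in WT left ventricles and of 11.93 to 12.20 in KO and 11.625 to 11.91 in WT right ventricles. Endothelial and endocardial markers rose in 8 of 13 and fell in 2 on the left, with sums of 13.17 to 13.245 in KO and 12.80 to 12.93 in WT. On the right 3 of them rose and 1 fell, with sums of 13.13 to 13.23 in KO and 12.92 to 13.18 in WT. No gene of these lists passed the interaction of genotype and ventricle (limma, 0 of 19 and 0 of 13), where 8 of the 19 macrophage and leukocyte markers, 7 of the 13 endothelial and endocardial ones and 13.9% of all genes had an unadjusted p under 0.05. These lists thus moved with genotype in the same comparisons as the members, and their part in the members' differences was not tested.

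Cardiomyocyte markers rose in 3 of 15 on the left and 2 on the right, with sums of 17.95 to 18.01 in KO and 17.81 to 17.85 in WT left ventricles and of 18.02 to 18.09 in KO and 17.89 to 17.99 in WT right ventricles. Skeletal muscle markers rose in 1 of 13 and fell in 3 on the left and rose in 1 and fell in 1 on the right. Of their 13 differences 8 on the left and 10 on the right were below 0. Their medians were -0.21 and -0.27, against -0.01 and -0.04 for all genes. Their sums were 12.17 to 12.40 in KO and 12.21 to 12.89 in WT left ventricles. In right ventricles they were 13.17 to 13.35 in KO and 13.36 to 13.55 in WT, without overlap. Fibroblast, valve and epicardial markers rose in 3 of 12 and fell in 2 on the left, and 1 fell on the right. Erythroid markers rose in 2 of 16 and fell in 3 on the left and fell in 5 on the right. Their sums were 14.935 to 15.186 in KO and 14.68 to 14.84 in WT left ventricles, and 14.839 to 15.058 in KO and 14.589 to 14.826 in WT right ventricles. The sums were thus higher in KO, while 11 of 16 differences on the left and 10 on the right were below 0. Fetal liver markers fell in 3 of 14 on the left, with sums of 9.26 to 10.26 in KO and 10.46 to 12.37 in WT, and limma called 0 on the right, with 3 at an unadjusted p under 0.05. Sums on the right were 10.17 to 11.35 in KO and 10.82 to 13.43 in WT. Of the 14 differences 13 on the left and 14 on the right were below 0, with medians of -0.60 and -0.66. Immediate early genes, which respond quickly to stimuli, rose in 10 of 15 on the left, with sums of 12.85 to 12.915 in KO and 12.23 to 12.35 in WT, and in 1 on the right. Nuclear noncoding RNA fell in 2 of 4 on the left. The part of these lists in the members' differences was not tested either.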

How the data were processed

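Biotin-labelled cRNA made from 100 ng of RNA, per the labels' protocols, was read on Affymetrix arrays. The deposited values are log2 expression of 45101 probe sets, made by the authors with RMA, per the submitters' processing notes. RMA forces arrays to a common distribution, so a shift common to most genes would not be seen. No genome build or annotation version is stated in those notes, and 0 columns were unused. The platform table gave 34958 probe sets 1 symbol, 932 several and 9211 none. Taking the brightest set of each gene gave 18194 genes, dim ones included.

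A limma model (lmFit, eBayes) with 4 group means over 12 arrays tested all genes, adjusted by Benjamini-Hochberg. Isoform pairs had exact permutation tests, two-sided. The code of the model was run on simulated data with independent noise and known changes in KO left ventricles alone. The real arrays differ from that setting, so the run checks the code and not the calls. Members, lists and other settings were chosen with earlier results of these data known. The text names every member, Nos3, and the 3 largest called genes in each direction of a further list, and members called between ventricles. Deviations of same-numbered arrays correlated over 0.1 in all 3 pairs for KO and WT right ventricles (0.11 to 0.31) and for KO right and left ventricles (0.21 to 0.29), but not for the left ventricle (0.01 to 0.42) or for WT (-0.01 to 0.23). The labels do not say what the numbers stand for, and KO and WT arrays came from different embryos. Whether right and left arrays of a genotype came from the same embryos is not stated, so those arrays may be paired. The correlations alone establish no pairs. The main model paired no arrays, and the replicate block, over all 12 arrays, was 1 of the other settings. Precision is limited by the number of arrays. Alternatives were array scaling, variance and weight options, the replicate block, probe set rules, thresholds, the compared groups alone, a poly-A control term and left-out arrays. Software was limma 3.58.1 in R 4.3.3, with scipy 1.17.1 and matplotlib 3.10.9 under Python 3.11.15.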

Additional observations from a re-analysis of the deposited data

How the results depend on the processing

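Calls of Slc2a1, Eno3 and Ndrg1 in both ventricles and of Hk2, Pfkfb3 and Hif1a in the left held in all 23 settings tried for each. The 15 members called in the left ventricle became 7 with the poly-A control term, 7 without WT LV replicate 2 and KO LV replicate 3 together (the arrays with extreme nuclear RNA) and 9 at an adjusted p under 0.01, and 10 to 16 with 1 array left out. The 6 of the right ventricle became 3 at 0.01 and 3 with a difference of at least 0.5, and 4 to 6 with 1 array left out. The interaction's 0 became 3 with array weights and 0 to 3 with 1 array left out. For KO right against left the 2 became 1 with the mean of probe sets, 1 with every probe set tested on its own, 1 with the control term, 1 without the extreme arrays, 1 at 0.01 and 1 with the minimum difference, and 1 to 3 with 1 array left out. For WT the 0 became 1 without dim genes, 1 with an intensity trend and robust variances, 1 with the mean of probe sets and 10 with array weights, and 0 to 8 with 1 array left out. The left median of 0.17 became 0.073 with median centring, 0.11 with the control term and 0.11 without the extreme arrays, and 0.13 to 0.19 with 1 array left out, and the right median of 0.05 became -0.0017 to 0.0883 with 1 array left out. The count of isoform comparisons without overlap, 10 of 16, was 9 with the mean of probe sets and 10 to 12 with 1 array left out, and the mean of probe sets turned Pfkl against Pfkm in the left ventricle to -0.039. With the replicate block 16, 6, 0, 3 and 0 members were called in the left, right, interaction, KO and WT comparisons. The block added Slc2a4 on the left (-0.31, adjusted p = 0.0355) and Aldoc in KO, and changed no other member's call. The cause of these changes was not tested. Over all genes the left calls, 5617, were 2558 with the control term, 2738 without the extreme arrays and 10486 over all probe sets, the right calls, 1490, were 803 with the term, and 2858 with array weights. Array weights also gave 1364 for the interaction's 4, 684 for 208 in KO and 2212 for 179 in WT. Groups of 3 arrays limit all of these counts.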
